A study of Mus musculus with 4 samples.

Results

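Zic1, Zic2, Zic4 and Zic5 encode transcription factors of the Zic family, and the 4 genes were taken by symbol from the 32285 genes of the count table. Each was followed through the nuclei that passed the study's quality filter, as counts per 1000000 (CPM) summed unique molecular identifiers (UMIs, each standing for 1 captured RNA molecule) in each library and as the share of nuclei with at least 1 UMI. In the nuclei of mouse posterior hindbrain, all 4 genes were higher in meningeal fibroblasts and tanycyte-like cells than in neurons as a whole. Among neurons Zic1 and Zic4 were spread over about the same clusters, Zic2 and Zic5 were scarce, and a cluster with the markers of cerebellar granule cells had the highest mean CPM of every member, though its libraries overlapped those of the next cluster for each. No member passed the main test between the study's groups, in neurons or in another cell type, but the calls for Zic4 in neurons and for Zic1 and Zic4 in astrocytes turned with the settings.

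Zic proteins bind DNA through zinc fingers that resemble those of the Gli proteins, the factors that carry the hedgehog signal to the genome. In the embryo they act in the dorsal neural tube, in the rhombic lip that gives rise to cerebellar granule cells and several hindbrain nuclei, and in the forming meninges. Zic1 and Zic4 are both needed for a cerebellum of normal size, Zic2 is needed to divide the forebrain and for crossing decisions of axons, and Zic5 acts in the neural crest.

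The nuclei came from mice in which AgRP neurons could be activated while POMC neurons were silenced, and from their controls, and the comparison asked how the hindbrain responds to that double switch. The AgRP-Gq;POMC-Gi mice carried AgRP-IRES-Cre+/-, hM3DGqfl/-, POMC-Dre+/- and hM4DGifl/-. Cre, made where Agrp is transcribed, switches on the activating receptor hM3DGq, and Dre, made where Pomc is transcribed, switches on the silencing receptor hM4DGi. Controls are labelled WT, while the methods describe control mice as littermates that lack the recombinases and carry both receptor alleles. All mice received the receptor ligand CNO (clozapine-N-oxide) at 3 mg per kg and were killed 1 h later, at 12 to 20 weeks of age. Each group had 2 libraries from 2 mice, and the paper names male and female mice for this experiment. The methods describe mice of a condition as pooled, so whether the 2 libraries of a group hold separate mice is not known. The p-values measure only the spread between libraries, which in controls may be purely technical.

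The 4 libraries held 39461 nuclei after the filter, with 9723 to 10051 nuclei and 48904976 to 53089402 UMIs each, and 168 barcodes (0.428%) occurred in more than 1 library. Of these nuclei 12539 were neurons, in 134 of 184 clusters, with a median of 8704 UMIs per nucleus. Neurons were 25.4% and 27.2% of nuclei in controls against 38.0% and 36.5% in AgRP-Gq;POMC-Gi. Choroid plexus nuclei were nearly absent from replicate 1 of each group, with 2 and 6 nuclei against 436 and 329 in replicate 2. AgRP-Gq;POMC-Gi replicate 2 stood apart in Xist, the transcript of the inactive X chromosome, with 16.2 CPM in neurons against 319 to 541 CPM in the other 3 libraries. The libraries of that group therefore do not hold the same mice in the same shares. The cell type names are the study's, and the defining markers were highest in their own type for 6 of 6 markers in fibroblasts, 4 of 4 in mural, ependymal and choroid plexus cells and 5 of 5 in neurons, but for only 2 of 4 in the tanycyte-like cells.

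Coordinates below are those of the GRCm38 build with GENCODE M21 gene models, the build named in the submitters' processing notes. Zic1 (ENSMUSG00000032368) lies at chr9:91358058-91365810 on the minus strand and Zic4 (ENSMUSG00000036972) at chr9:91362413-91389348 on the plus strand. Their start sites are 3397 bases apart and the gene bodies overlap by 3398 bases on opposite strands. Zic5 (ENSMUSG00000041703) lies at chr14:122456795-122465677 on the minus strand and Zic2 (ENSMUSG00000061524) at chr14:122475435-122479852 on the plus strand, with 9758 bases between their starts. Whether the counting used strand is not given in the sources used here, so reads from the shared 3398 bases may be split between Zic1 and Zic4 in a way the counts do not show.

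**Figure D1:**
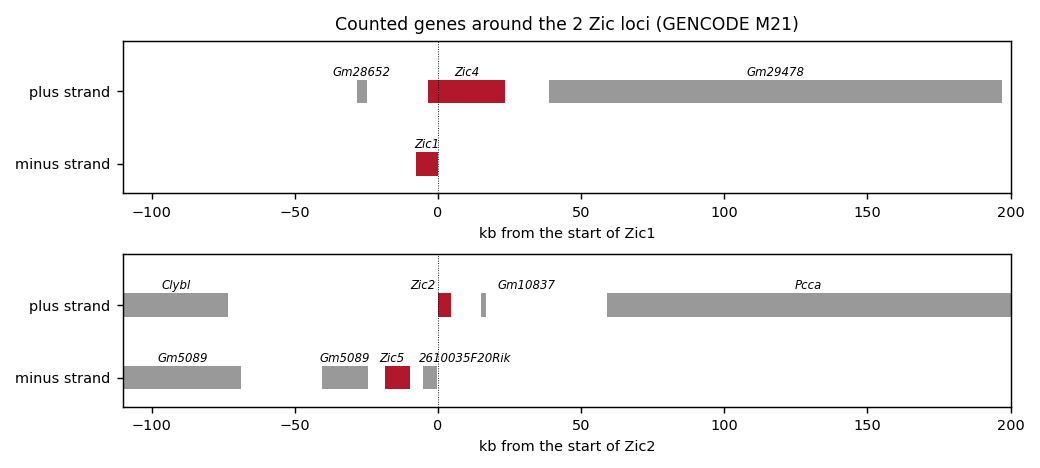
Gene models of the count table around both Zic loci, drawn to scale in kilobases from the start of Zic1 (upper panel) and of Zic2 (lower panel), with plus-strand genes above minus-strand genes and Zic genes in red. Zic1 and Zic4 overlap at their 5′ ends, the long noncoding gene Gm29478 follows Zic4, and the noncoding gene 2610035F20Rik lies between Zic5 and Zic2.

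The sequence just before a gene's start is shown for the members whose window held bases outside exons, to set the start of a widespread member beside that of a scarce one. RefSeq promoter windows of 250 bases before the start were found for 3 of the 4 members, Zic1, Zic4 and Zic5, and the Zic4 window lay wholly within annotated exons. RefSeq puts the start of Zic4 inside the GENCODE gene body given above, so its window (chr9:91368722-91368971) is not the sequence before that gene's first base and is left out of what follows. Sequences are from RefSeq on the GRCm38.p6 assembly, written 5′ to 3′ on the strand of the gene and trimmed of exonic bases. Capitals mark the GC box GGGCGG, the box named for its letters CCAAT and the E-box CACGTG, searched on both strands.
Zic1, chr9:91365811-91366018, minus strand, 208 bases: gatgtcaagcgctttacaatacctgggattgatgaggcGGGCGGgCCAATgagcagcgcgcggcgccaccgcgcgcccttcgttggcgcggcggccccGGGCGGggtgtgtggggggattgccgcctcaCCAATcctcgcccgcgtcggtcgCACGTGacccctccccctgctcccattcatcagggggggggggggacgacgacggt
Zic5, chr14:122465678-122465908, minus strand, 231 bases: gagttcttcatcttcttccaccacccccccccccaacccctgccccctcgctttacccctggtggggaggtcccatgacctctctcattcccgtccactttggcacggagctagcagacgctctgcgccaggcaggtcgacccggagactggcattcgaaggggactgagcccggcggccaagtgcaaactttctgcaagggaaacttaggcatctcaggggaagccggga
The Zic1 window held 2 GC boxes, 2 CCAAT boxes and 1 E-box, letters that occur in 32.7%, 33.8% and 6.02% of the 32851 promoter windows. No match to these motifs or to TATAAA was found in the Zic5 window, and CAGCAGG, the core of the sequence that Zic proteins bind, was in neither (8.44% of all windows). Over its full 250 bases, exonic bases included, the Zic1 window was 66.0% G and C with 27 CpG dinucleotides. That of Zic5 was 62.4% with 11, against a median of 52.4% over all windows. The trimmed stretches shown were 71.2% G and C for Zic1 and 62.3% for Zic5.

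Outside neurons Zic1 was highest in fibroblasts, mural cells and tanycyte-like cells. For Zic1, CPM in fibroblasts was 295 and 219 in controls against 264 and 330 in AgRP-Gq;POMC-Gi (277 ± 46.8, SD, n = 4), and 44.7% of 819 fibroblast nuclei held a UMI. Mural cells, the contractile cells of vessel walls, followed at 310, 268, 223 and 280 CPM in the same order of libraries (271 ± 36.1). Tanycyte-like cells, radial cells of the ventricle wall, held 266, 125, 219 and 322 CPM of Zic1 (233 ± 83.5). The libraries of these 3 types overlapped, so their order is not settled, and all of them stood above choroid plexus, where the 4 libraries gave 108, 98.3, 79.6 and 99.2 CPM (96.3 ± 12.0). Neurons held 22.8 ± 3.49 CPM and oligodendrocytes, which stand here for the background that free RNA gives, 3.81 ± 0.979 CPM.

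Zic4 gave the same leading types in another order. Tanycyte-like cells held 266, 287, 306 and 380 CPM (310 ± 49.5) with a UMI in 57.9% of 202 nuclei, mural cells 270 ± 39.9 CPM and fibroblasts 228 ± 35.6 CPM. The ranges of these 3 types overlapped each other. Ependymal cells, the ciliated lining of the ventricles, came to 96.4 ± 18.1 CPM, and endothelial cells to 2.47 ± 3.30 CPM, next to the oligodendrocyte value of 1.09 ± 0.599 CPM.

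Zic2 was at its highest in fibroblasts, at 61.2 and 95.4 CPM in controls against 151 and 115 CPM in AgRP-Gq;POMC-Gi (106 ± 37.6). Tanycyte-like cells held 34.4 ± 4.35 CPM of Zic2. Endothelial cells, in which Zic4 was at background, held 35.4, 30.2, 23.3 and 46.6 CPM of Zic2 (33.9 ± 9.84), against 0.418 ± 0.402 CPM in oligodendrocytes. Every endothelial library was thus far above every oligodendrocyte library for Zic2. Zic5 had a like pattern at low levels, with 33.4, 81.1, 63.2 and 43.9 CPM in fibroblasts (55.4 ± 21.1), 47.7 ± 17.3 CPM in tanycyte-like cells and 27.5 ± 21.3 CPM in endothelial cells. Its mean of 48.3 CPM in choroid plexus rests on libraries with 2 and 6 nuclei, which gave 0 and 119 CPM, and the libraries with more nuclei gave 38.1 and 35.9 CPM.

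**Figure D2:**
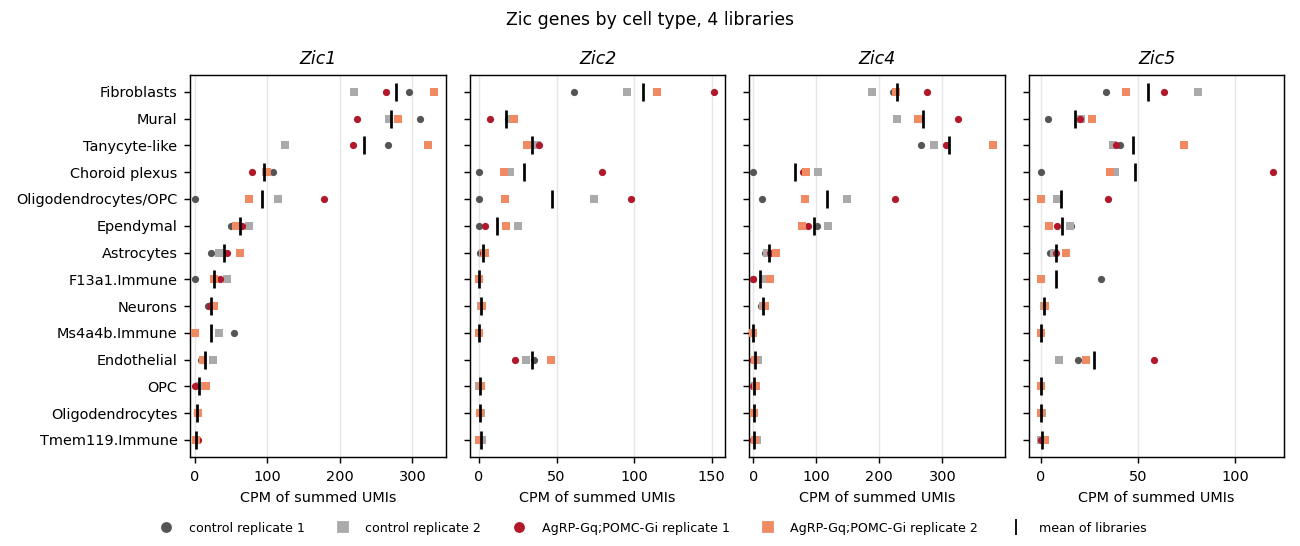
Each point is 1 library's CPM of summed UMIs for a Zic gene (panels) in a cell type (rows), with dark and light grey for control replicates 1 and 2, red and orange for AgRP-Gq;POMC-Gi replicates 1 and 2, and a black bar for the mean. Fibroblasts, mural and tanycyte-like cells lie at 125 CPM or more for Zic1 in every library, while neurons lie between 18.7 and 26.2 CPM, and endothelial cells carry Zic2 and Zic5 but little Zic4.

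The mean for the type called Oligodendrocytes/OPC, 92.2 ± 75.0 CPM of Zic1 and 118 ± 90.2 CPM of Zic4, came from 1 of its 2 clusters. Cluster 138 (61 nuclei, 0 and 27 of them in controls and 32 and 2 in AgRP-Gq;POMC-Gi) held 282 CPM of Zic1, 350 CPM of Zic4, 146 CPM of Zic2 and 36.6 CPM of Zic5 over all its UMIs. Its leading genes were Prg4, which encodes lubricin, and the fibronectin gene Fn1, with a UMI in 96.7% and 98.4% of nuclei. Only 1 of 5 oligodendrocyte markers and 0 of 4 precursor markers were found in at least 20% of its nuclei, and 1 of 6 fibroblast markers. In cluster 136 (62 nuclei), with 4 of 5 oligodendrocyte and 3 of 4 precursor markers and led by Gpr17, a gene of differentiating oligodendrocytes, Zic1 was at 0 and Zic4 at 3.41 CPM. The data go against the label for cluster 138, and no other type is assigned to it here.

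Within types the members also differed from cluster to cluster. Of the ependymal clusters, cluster 37 (185 nuclei) held 95.1 CPM of Zic1 and 146 CPM of Zic4, and cluster 71 (129 nuclei) 3.91 and 13.1 CPM. Among the 5 fibroblast clusters Zic1 ranged from 198 to 354 CPM and Zic4 from 193 to 319 CPM. Zic2 was at 179 and 166 CPM in fibroblast clusters 69 and 27 and between 48.5 and 75.8 CPM in the remaining 3, a wider spread than that of Zic5 (42.1 to 63.0 CPM). Of the 6 endothelial clusters, cluster 106 (92 nuclei), led by the interleukin receptor gene Il1r1 and the von Willebrand factor gene Vwf, was the highest for Zic2 at 66.7 CPM. Astrocytes spread over a wide range: over their 11 clusters Zic1 ran from 2.52 CPM (cluster 21) to 199 CPM (cluster 54) and Zic4 from 0.826 CPM (cluster 17) to 240 CPM (cluster 54). Cluster 54 (149 nuclei) was led by A2m, Pgm5 and Gfap, the last of which encodes the astrocyte filament protein. Since clusters were built from expression, none of these differences between clusters or types was tested.

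In neurons UMIs of the members were few. Over all 12539 neurons 2864 UMIs of Zic1, 2027 of Zic4, 227 of Zic5 and 181 of Zic2 were counted. A UMI of Zic1 was found in 15.9% of neurons, against 0.975% of oligodendrocytes, whose median of 2460 UMIs per nucleus was below the 8704 of neurons. The corresponding shares were 11.7% and 0.268% for Zic4, 1.67% and 0.0714% for Zic5, and 1.35% and 0.107% for Zic2. With every nucleus thinned to 800 UMIs the neuronal shares were 2.40% for Zic1, 1.65% for Zic4, 0.207% for Zic5 and 0.136% for Zic2, and those of oligodendrocytes 0.369%, 0.0773%, 0.0297% and 0.0238%, so each member stayed above background at equal depth.

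A neuronal cluster was counted as bearing a gene under 2 conditions. At least 20% of its nuclei held a UMI, and its mean CPM over libraries was at least 4 times that of oligodendrocytes. The 133 clusters with at least 20 nuclei were described. By this rule 45 clusters (33.8%) bore Zic1 and 33 (24.8%) bore Zic4, while cluster 163 alone bore Zic5 (0 clusters without control replicate 1) and none bore Zic2 (1 without control replicate 2). With neurons thinned to 2000 UMIs, 8 clusters bore Zic1 and 4 bore Zic4. The 45 Zic1 clusters held 33.9% of neurons and 79.0% of all neuronal Zic1 UMIs, and the 33 Zic4 clusters 23.1% of neurons and 68.9% of Zic4 UMIs. The clusters next to the limit were cluster 80 at 20.0% and cluster 40 at 19.4% for Zic1, cluster 40 at 20.6% and cluster 75 at 19.8% for Zic4, and cluster 163 at 21.3% and cluster 104 at 14.9% for Zic5. For Zic2 the closest was cluster 113 at 16.9%. No UMI of Zic1 was found in 5 clusters, of Zic4 in 20, of Zic5 in 61 and of Zic2 in 85. The largest cluster with none, cluster 30 for Zic1 and Zic2, had 219 nuclei, and its count of 0 allows a share of up to 1.37% of nuclei with a UMI, counting error only.

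The bearing clusters of Zic1 and Zic4 were largely shared. Both genes were borne by 31 clusters, which is 68.9% of the Zic1 clusters and 93.9% of the Zic4 clusters. Clusters 40 (Ebf2/Ankfn1) and 140 (Fgf10/Cpne4) bore Zic4 without Zic1, and in both the Zic1 share missed the limit narrowly, at 19.4% and 16.4%. By transmitter genes, with Slc17a6 or Slc17a7 for vesicular glutamate transport and Slc32a1 for GABA and glycine, 22 of 70 glutamatergic clusters (31.4%), 15 of 45 GABAergic clusters (33.3%), 3 of 8 mixed clusters and 5 of 10 that fitted no class bore Zic1. For Zic4 these were 19 of 70 glutamatergic (27.1%), 7 of 45 GABAergic (15.6%), 3 of 8 mixed and 4 of 10 unclassed clusters. The median CPM over clusters did not follow these counts. It was 15.2 in glutamatergic against 8.76 in GABAergic clusters for Zic1, and 6.07 against 6.30 for Zic4. A lean of either gene to 1 transmitter class is therefore not settled.

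The highest mean CPM of every member among neuronal clusters was in cluster 104, whose leading genes Gabra6 and Fat2 are known from cerebellar granule cells. It had 5 of 6 granule cell markers in at least 20% of its 94 nuclei and is called granule-cell-like here. Zic1 was at 430 and 368 CPM in controls against 443 and 537 CPM in AgRP-Gq;POMC-Gi (445 ± 69.8), with a UMI in 66.0% of nuclei (95% exact binomial interval 55.5 to 75.4%, counting error only). Zic4 was at 134, 140, 148 and 209 CPM (157 ± 34.7), and its libraries overlapped those of clusters 156 and 142, which reached 173 and 161 CPM. Zic5 was at 44.5, 36.8, 59.1 and 59.7 CPM (50.01 ± 11.3), which overlapped the libraries of cluster 163 at a mean of 48.8 CPM. Zic2 was at 29.7, 36.8, 19.7 and 59.7 CPM (36.5 ± 17.0), on 11 UMIs over the 4 libraries together, and overlapped cluster 49, which reached 31.4 CPM. For Zic1 every library of cluster 104 lay above those of clusters 142, 163 and 92, while it overlapped cluster 182, where 1 library reached 457 CPM. By share of nuclei with a UMI cluster 142 was first for Zic1 (71.7%) and Zic4 (60.0%), cluster 163 for Zic5 (21.3%) and cluster 113 for Zic2 (16.9%). Cluster 104 is rare, with 20, 35, 31 and 8 nuclei in the 4 libraries, and holds 4.96% of all neuronal Zic1 UMIs.

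The granule-cell-like cluster 104 was first of 133 clusters for 3 of 12 hedgehog pathway genes and 4 of 40 rhombic lip and dorsal lineage factors with a UMI, against 2.12% of all genes with a UMI. These counts are a description, since clusters were formed from the same values. The lineage factors included Pax6 (126 ± 29.0 CPM), Neurod1 (58.5 ± 20.8 CPM) and Barhl1 (40.2 ± 34.2 CPM), factors of the granule cell lineage, beside Neurod6 (30.8 ± 14.1 CPM). Cluster 104 was also first for the granule cell marker Gabra6 (700 ± 155 CPM), a GABA-A receptor subunit gene in neither list. The hedgehog genes were the receptor gene Ptch1 (89.6 ± 44.9 CPM) and the co-receptor genes Boc (91.9 ± 26.7 CPM) and Cdon (104 ± 60.2 CPM). Cluster 182 (27 nuclei, 2 in the smallest library) came next for Zic1 at 328, 457, 127 and 181 CPM (273 ± 149). It was first for the roof plate and rhombic lip factor Lmx1a (565 ± 110 CPM) and for Meis1 (903 ± 116 CPM), a developmental factor that is common in hindbrain neurons. With 2 of 3 unipolar brush cell markers and 2 of 6 granule cell markers detected, cluster 182 was left unnamed.

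Inhibitory and mixed clusters followed. Cluster 142 (Cpne4/Trhde, 60 nuclei), in which 71.7% of nuclei held a Zic1 UMI, had 349 and 338 CPM in controls against 183 and 169 CPM in AgRP-Gq;POMC-Gi (260 ± 97.3), and Zic4 there was at 116, 84.5, 161 and 148 CPM (127 ± 34.0). The 2 genes thus lay on opposite sides between groups in this cluster. Cluster 163 (Adamts18/Col25a1, 47 nuclei, GABAergic) had 177, 152, 126 and 189 CPM of Zic1 (161 ± 28.0), and its Zic5 came to 118, 21.7, 29.7 and 25.8 CPM (48.8 ± 46.3), with control replicate 1 far above the other libraries on a total of 12 UMIs. It was first for Tfap2a (57.8 ± 25.0 CPM), an AP-2 factor of dorsal inhibitory lineages. Of the clusters that were mixed by transmitter genes, cluster 92 held 147 ± 30.4 CPM of Zic1 and cluster 49 (Ccbe1/Tspan18) 103 ± 37.9 CPM of Zic4. The glutamatergic cluster 156 (Ankfn1/Pou4f1) was second for Zic4, at 103, 102, 173 and 135 CPM (128 ± 33.3). Cluster 179 was also among the first 6 for Zic1 (156 CPM), but on 4 UMIs, 3 of them in 1 nucleus, in a cluster with 32 of its 33 nuclei in control replicate 1, and 4 of 5 oligodendrocyte markers were detected in it.

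**Figure D3:**
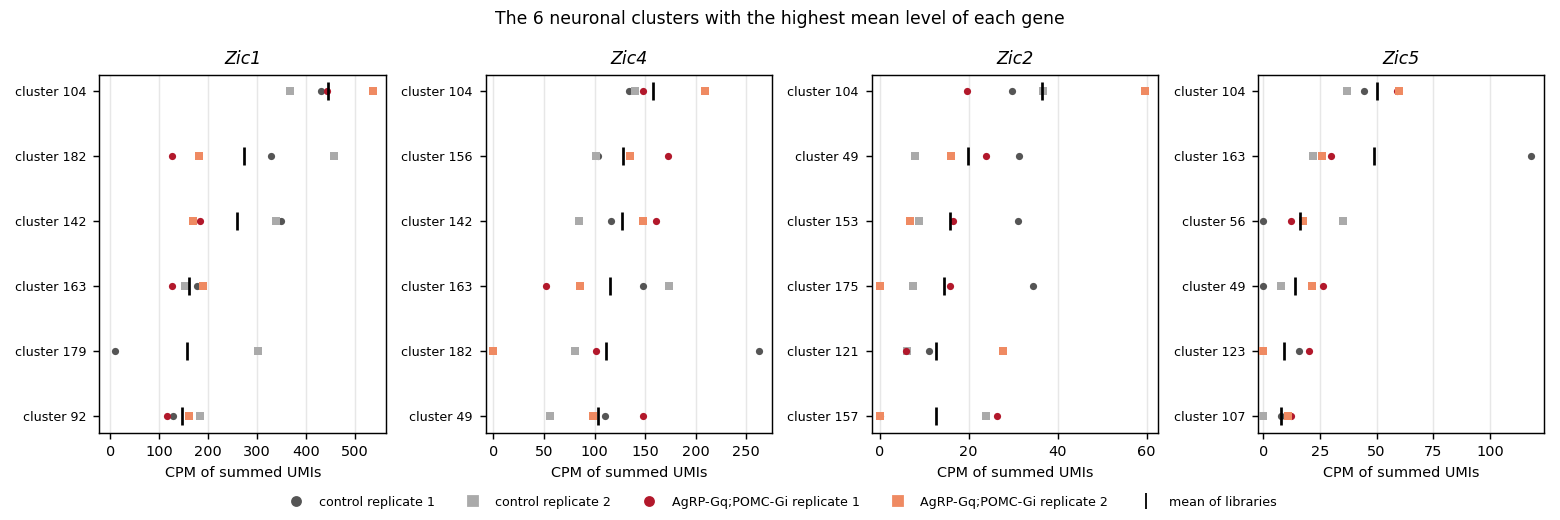
The 6 neuronal clusters with the highest mean CPM of each Zic gene (panels), with 1 point per library in the colours of the plot by cell type and a black bar for the mean. Cluster 104 has the highest mean in every panel, its 4 Zic1 values lie between 368 and 537 CPM, and the Zic2 and Zic5 panels have libraries at 0 in several of the other clusters.

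Zic2 after cluster 104 was highest in cluster 49 (19.8 ± 10.1 CPM, from 7.95 to 31.4 CPM over libraries), then in clusters 153, 175, 121 and 157 at means of 12.6 to 15.8 CPM. After clusters 104 and 163, Zic5 was highest in cluster 56 (0, 35.0, 12.1 and 17.3 CPM), then in clusters 49, 123 and 107 at means of 7.78 to 13.9 CPM. In both lists the libraries of neighbouring clusters overlapped, the first places included, so the order is not settled.

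The developmental factors that went with Zic1 over clusters were given by how many of the 45 bearing and 88 other clusters held each in at least 20% of nuclei. Slc17a7, the vesicular glutamate transporter of granule cells and precerebellar neurons, did so in 6 of 45 against 0 of 88, and Neurod2, a factor of maturing neurons, in 13 of 45 against 4 of 88. Pax6 was found in 5 of 45 against 1 of 88 and Tfap2a in 5 of 45 against 2 of 88. On the other side were Lhx1 with 5 of 45 against 28 of 88 and Lmx1b with 8 of 45 against 29 of 88. Pax2, a factor of dorsal inhibitory interneurons, differed less (22 of 45 against 34 of 88). The hedgehog receptor Ptch1 was as frequent in bearing (36 of 45) as in other clusters (70 of 88), and Gli1 and Gli2 reached 20% in 0 of 133. These counts are descriptions, since clusters were formed from the same expression values.

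Over the 133 clusters the levels of Zic1 and Zic4, as log2(mean CPM + 1), had a Pearson correlation of 0.86. The correlation was 0.60 for Zic1 and Zic2, 0.58 for Zic2 and Zic5, 0.56 for Zic2 and Zic4, 0.34 for Zic4 and Zic5 and 0.33 for Zic1 and Zic5. The clusters share the same 4 libraries and differ in depth and size, so no p is given. Among neurons, 644 nuclei held UMIs of both Zic1 and Zic4, against 501 expected had the genes been independent within each cluster and library, a ratio of 1.28. With nuclei thinned to 2000 UMIs the counts were 89 and 67.5, a ratio of 1.32. For the other pairs the ratio was 1.06 (Zic1 and Zic5) to 1.48 (Zic2 and Zic5) at full depth. After thinning it was 1.54 for Zic1 and Zic2, 1.17 for Zic4 and Zic5, 1.02 for Zic2 and Zic4 and 0.864 for Zic1 and Zic5, each on 10 or fewer joint nuclei, and Zic2 and Zic5 were found together in 0 nuclei against 0.566 expected.

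**Figure D4:**
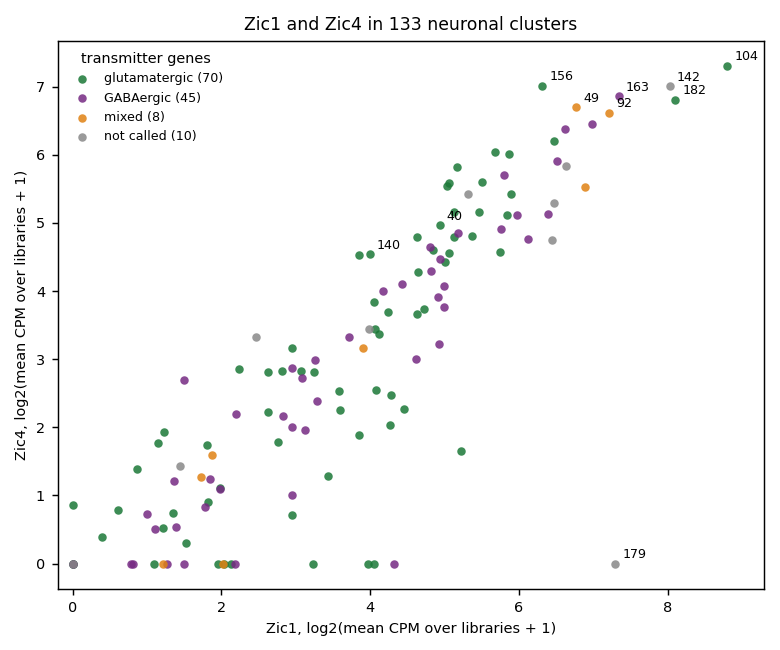
Each point is 1 of 133 neuronal clusters, placed by log2(mean CPM + 1) of Zic1 (horizontal) and Zic4 (vertical) and coloured by transmitter genes, with the highest clusters and clusters 40, 140 and 179 numbered. The points rise together over the whole range (Pearson correlation 0.86), with glutamatergic and GABAergic clusters mixed along it, and cluster 179 is off the trend on 4 UMIs of Zic1.

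Of 14576 genes compared over clusters, those with patterns most like Zic1 were Zic4 (0.86), the noncoding gene Gm29478 (0.72), Stxbp5l (0.61), Cep112 (0.55), Cdk19 (0.51) and Dennd2a (0.51). Stxbp5l encodes a tomosyn that restrains vesicle release, Cep112 a centrosome protein and Cdk19 a kinase of the Mediator complex. For Zic4 the list was Zic1, Gm29478 (0.78), Stxbp5l (0.62), Cep112 (0.55), 8030453O22Rik (0.49) and the Wnt ligand gene Wnt3 (0.49). For Zic2 it was Gm29478 (0.64), Zic1 (0.60), the chromatin remodeller gene Chd7 (0.59), Stxbp5l (0.57), Zic4 (0.56) and Neurod2 (0.56). For Zic5 it was Chd7 (0.48), Pcca (0.46), Gm29478 (0.46), Stxbp5l (0.43), Tmem117 (0.43) and Lrrn2 (0.43), of which only 1 of 6 was also among the first 6 by rank correlation.

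Some of these genes are neighbours of the Zic loci. Gm29478, a long noncoding RNA gene at chr9:91404474-91562818 on the plus strand, begins beyond the end of Zic4 and was at 820 ± 134 CPM in tanycyte-like cells (70.3% of nuclei), 146 ± 43.7 CPM in fibroblasts and 8.10 ± 2.66 CPM in neurons. Its highest neuronal cluster was 163, at 178 ± 63.6 CPM. Pcca, a subunit of propionyl-CoA carboxylase at chr14:122534324-122891100 on the plus strand, lies beyond Zic2 and had a UMI in 74.3% of neurons. Gm28652 (chr9:91337601-91340878, plus strand) and 2610035F20Rik (chr14:122470284-122475199, minus strand), noncoding genes that were chosen after their values were seen, each had a correlation of 0.72 with Zic2. They were measured on 158 and 178 neuronal UMIs. Not all counted neighbours followed the members. Correlations with Zic1 and Zic2 were 0.04 and 0.19 for Clybl, 0.15 and 0.22 for Gm5089, and 0.36 and 0.52 for Gm10837 on 25 UMIs. Pcca was at 0.08 with Zic1 and 0.15 with Zic4, but at 0.42 with Zic2 and 0.46 with Zic5, the members on its own chromosome.

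Between the groups, levels over all neurons were compared on counts summed per library. For Zic4, CPM was 12.1 and 14.9 in controls against 17.8 and 18.7 in AgRP-Gq;POMC-Gi, and for Zic1 it was 18.7 and 25.1 against 21.1 and 26.2. Zic2 was at 1.23 and 1.24 against 1.60 and 1.62 CPM and Zic5 at 1.41 and 1.49 against 2.11 and 2.07 CPM. The groups did not overlap for Zic4, Zic2 and Zic5, all higher in AgRP-Gq;POMC-Gi, and they overlapped for Zic1. A gap in that direction was found for 10.4% of the 12115 genes tested, a set that leaves out the scarcer Zic2 and Zic5. Only Zic1 and Zic4 passed the filter of a UMI in at least 5% of neurons. None of them passed an adjusted p of 0.05 in edgeR's quasi-likelihood test with Benjamini-Hochberg adjustment, where the background was 0% of genes (667 at an unadjusted p under 0.05, and 10 past the adjusted threshold in DESeq2). The log2 fold change of Zic4 was 0.49 (SE 0.13, adjusted p = 0.810 in edgeR, with an unadjusted p of 0.0065) and that of Zic1 0.16 (SE 0.15, adjusted p = 0.831 in edgeR). Without AgRP-Gq;POMC-Gi replicate 2 the value of Zic4 was 0.51 with an adjusted p of 0.0397 in edgeR, in a fit that called 16.6% of all genes, and that of Zic1 was -0.031 when control replicate 1 was left out.

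The mixture of neurons can move such a level. Clusters that bore Zic1 held 29.2% and 33.6% of neurons in controls against 35.2% and 36.1% in AgRP-Gq;POMC-Gi and the groups did not overlap. The mean difference was 4.27 percentage points, with p = 0.333 in a two-sided exact permutation test, the smallest p that 2 against 2 libraries allow. It was 2.08 points without control replicate 1, 6.47 points without control replicate 2 and 0.222 points when a bearing cluster had to hold a UMI in 50% of its nuclei. With 131 clusters weighted alike the log2 ratio of AgRP-Gq;POMC-Gi to control was -0.18 for Zic1, -0.11 for Zic2, 0.15 for Zic4 and 0.31 for Zic5. The sign thus turned for Zic1 and Zic2, but the groups overlapped for both. Zic1 so weighted was at 32.6 and 35.9 in controls against 27.1 and 33.4 CPM, and Zic2 at 2.30 and 1.60 against 1.69 and 1.92 CPM. The log2 ratio of Zic4 was under the 0.43 that edgeR gave over all neurons without TMM factors, which like this ratio is on plain CPM. Summed over only the clusters that bore the gene, the log2 fold change was 0.00 for Zic1 (adjusted p = 0.996 in edgeR) and 0.40 for Zic4 (adjusted p = 0.604 in edgeR). Over the clusters that did not bear the gene it was 0.21 for Zic1 (adjusted p = 0.893 in edgeR) and 0.48 for Zic4 (adjusted p = 0.818 in edgeR), and for Zic5 in its bearing cluster it was -0.85 (SE 1.00, adjusted p = 0.962 in edgeR). Markers of other cells in neurons also varied between libraries. Summed choroid plexus markers were at 2.08, 1008, 8.01 and 583 CPM and summed fibroblast markers at 4.69, 10.4, 6.80 and 6.58 CPM, with overlap of the groups, while the sums of mural markers (11.2 and 14.7 against 7.73 and 8.79 CPM), oligodendrocyte markers (257 and 216 against 124 and 159 CPM), granule cell markers (22.1 and 22.1 against 19.9 and 19.6 CPM) and unipolar brush cell markers (58.5 and 52.0 against 48.7 and 45.2 CPM) were lower in AgRP-Gq;POMC-Gi. The sums of motor neuron markers (15.7 and 17.5 against 22.8 and 22.4 CPM), microglia markers (137 and 135 against 151 and 138 CPM) and neuron markers (2492 and 2436 against 2520 and 2515 CPM) were higher there. Their part in the Zic levels was not tested.

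No gene related to the Zic family by sequence, pathway or lineage passed the test in all neurons. Of the Zic and Gli relatives 2 of 7 passed the filter on low values, of the hedgehog pathway genes 5 of 12, of the rhombic lip and dorsal lineage factors 13 of 41 and of the transmitter genes 5 of 13. In each list 0 genes passed an adjusted p of 0.05 in edgeR and 0 had an unadjusted p under 0.05, against 5.51% of all genes. Their median log2 fold changes were 0.09, -0.00, 0.11 and 0.09, and that of all genes -0.00.

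Within single neuronal clusters 150 pairs of a member and a cluster could be tested, over 120 clusters. None passed an adjusted p of 0.05 in edgeR, against 0.0385% of all pairs of gene and cluster, and 13 had an unadjusted p under 0.05, or 8 higher and 5 lower in AgRP-Gq;POMC-Gi (4.52% of all pairs). DESeq2 gave 0 at an unadjusted p under 0.05. Among the smallest p were those of Zic4 in cluster 108 (15.1 and 0 against 50.6 and 30.6 CPM) and in cluster 55 (3.69 and 13.7 against 33.6 and 33.6 CPM), with unadjusted p of 0.0054 and 0.0065 and adjusted p of 0.858 and 0.909 in edgeR. Zic4 in cluster 119 was at 0 in both controls and at 37.0 and 23.3 CPM in AgRP-Gq;POMC-Gi, from 6 UMIs in each. Zic1 went the other way in clusters 174 (27.5 and 35.2 CPM against 0 and 0) and 124 (11.4 and 18.6 CPM against 0 and 0), on 7 and 8 UMIs in all. In clusters 119, 174 and 124 the gene met the filter of a UMI in 5% of nuclei only through the group in which it was found. Their small p are therefore no support for a difference. Zic4 in cluster 56, a bearing cluster, was at 35.1 and 75.8 against 125 and 110 CPM (log2 fold change 0.97, adjusted p = 0.950 in edgeR). For Zic1 in cluster 142, where the groups were 349 and 338 against 183 and 169 CPM, the log2 fold change was -0.80, with an unadjusted p of 0.0478 and an adjusted p of 0.952 in edgeR.

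Among the other cell types 15 pairs of member and type could be tested over 9 types, and none passed an adjusted p of 0.05 in edgeR, against 0.121% of all pairs of gene and type. At an unadjusted p under 0.05 there were 2, Zic1 and Zic4 in astrocytes, both higher in AgRP-Gq;POMC-Gi, against 6.39% of all pairs in either direction and 3.1% in that direction. Among the 8462 astrocyte genes alone these shares were 10.3% and 5.16%, and 0.626% passed the adjusted threshold. Astrocyte Zic1 was at 22.5 and 33.8 CPM in controls against 44.8 and 61.9 CPM in AgRP-Gq;POMC-Gi, and Zic4 at 18.4 and 21.3 against 27.2 and 36.8 CPM. Neither gene overlapped between groups, which held for 15.2% of astrocyte genes in that direction. The log2 fold change was 0.97 for Zic1 (SE 0.19, adjusted p = 0.0520 in edgeR) and 0.73 for Zic4 (SE 0.18, adjusted p = 0.100 in edgeR). The call for Zic1 turned with single libraries and with the tool: the adjusted p was 0.0254 in DESeq2, and in edgeR with 1 library left out, 4.17e-05 (control replicate 2, log2 fold change 1.27), 0.0198 (AgRP-Gq;POMC-Gi replicate 1, 1.11), 0.140 (control replicate 1, 0.70) and 0.100 (AgRP-Gq;POMC-Gi replicate 2, 0.82). That for Zic4 was 0.0483 without AgRP-Gq;POMC-Gi replicate 1 (0.86), and 0.502, 0.0968 and 0.171 without control replicate 1, control replicate 2 and AgRP-Gq;POMC-Gi replicate 2. Without the filter on low values both passed in edgeR, with adjusted p of 2.06e-06 for Zic1 and 0.0115 for Zic4.

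Since Zic levels ran over a wide range among astrocyte clusters, the clusters were also taken one by one, a choice made after the data were seen. In cluster 54 Zic1 was at 122 and 169 CPM in the controls against 251 and 253 CPM, and in cluster 48 at 43.5 and 68.7 against 135 and 166 CPM. In cluster 15 it was at 34.6 and 42.7 against 50.8 and 81.5 CPM, and in cluster 52 at 0 and 14.5 against 42.6 and 49.2 CPM. These 4 clusters had the smallest p of the 7 astrocyte clusters in which Zic1 was tested, with unadjusted p of 0.0288, 0.0027, 0.0057 and 0.0382 and adjusted p of 0.728, 0.939, 0.309 and 0.988 in edgeR. In cluster 52 Zic1 met the filter of a UMI in 5% of nuclei only through AgRP-Gq;POMC-Gi. Its small p there is therefore no support for a difference. Zic1 was higher in AgRP-Gq;POMC-Gi without overlap in 5 of the 7, cluster 52 included and cluster 18 being the fifth, as were 15.7% of all pairs of gene and cluster tested in them. The 7 clusters are parts of the same astrocytes in the same 4 libraries, so they are not separate observations of the groups. Zic1 overlapped in cluster 20, at 64.8 and 52.9 against 55.8 and 59.9 CPM, and in cluster 22, at 25.7 and 42.8 against 40.4 and 46.9 CPM. Over all clusters other than neuronal, 47 pairs with a member were tested and 0 passed the adjusted threshold (0.172% of all pairs). An unadjusted p under 0.05 in edgeR was found for 5, all higher in AgRP-Gq;POMC-Gi and all in astrocytes (6.2% of all pairs in either direction and 2.93% in that one). Among them are Zic1 in cluster 52 and Zic5 in cluster 15 (9.43 and 6.40 in controls against 13.8 and 21.7 CPM). Both pairs met the filter of a UMI in 5% of nuclei only through AgRP-Gq;POMC-Gi, so they are no support for a common direction.

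**Figure D5:**
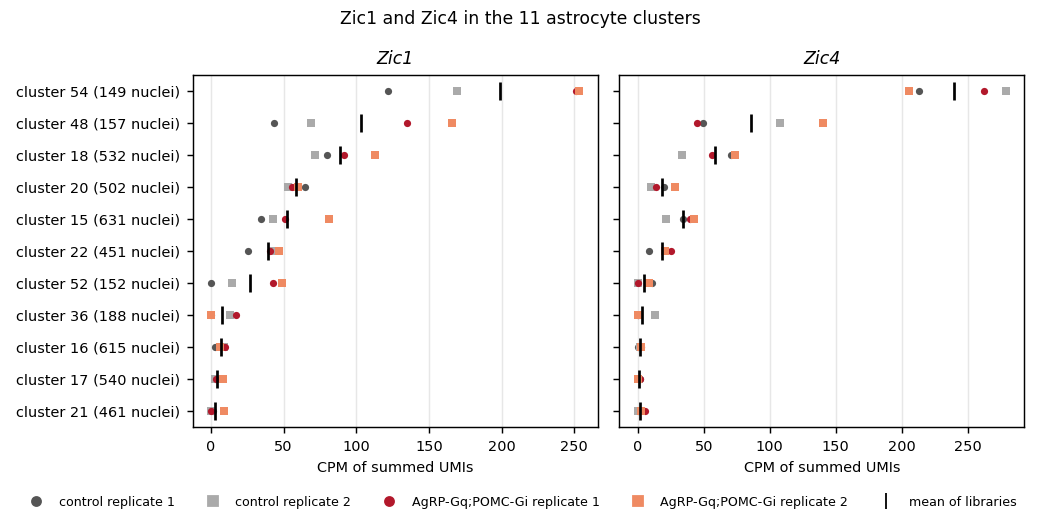
CPM of Zic1 (left) and Zic4 (right) in each of the 11 astrocyte clusters, with 1 point per library in the colours of the plot by cell type and a black bar for the mean. Zic1 values of the AgRP-Gq;POMC-Gi libraries lie to the right of both controls in clusters 54, 48, 18, 15 and 52, while Zic4 in cluster 54 overlaps between groups.

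The makeup of the astrocytes also differed between libraries. Cluster 20 held 5.71% and 8.95% of astrocytes in controls against 15.4% and 15.8% in AgRP-Gq;POMC-Gi, and cluster 17, low in both genes, held 14.1%, 15.4%, 14.8% and 5.57%. With the 11 clusters weighted alike, Zic1 was at 34.3 and 44.3 against 63.5 and 72.1 CPM, a log2 ratio of 0.79, and weighted by overall share it was 0.61, against 0.92 for the summed counts. For Zic4 the log2 ratio was 0.12 with clusters weighted alike and 0.28 by overall share, against 0.69 for the summed counts. Summed markers of other cells in astrocytes were 57.1, 91.5, 59.1 and 73.0 CPM for fibroblasts, 47.8, 66.4, 58.2 and 65.7 CPM for mural cells, 161, 129, 151 and 171 CPM for tanycyte-like cells and 4.11, 2708, 18.5 and 1648 CPM for choroid plexus, and these 4 lists did not separate the groups. The sums of oligodendrocyte markers (564 and 617 against 368 and 467 CPM), precursor markers (48.7 and 50.6 against 63.9 and 68.7 CPM), granule cell markers (108 and 115 against 118 and 141 CPM) and unipolar brush cell markers (9.74 and 12.3 against 9.26 and 8.62 CPM) did. Their part in the result was not tested.

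In the cell types richest in Zic genes no difference between the groups reached an unadjusted p of 0.05. Fibroblast Zic2, at 61.2 and 95.4 against 151 and 115 CPM, gave a log2 fold change of 0.70 (SE 0.32, adjusted p = 1.00 in edgeR). Tanycyte-like cells gave 0.61 (SE 0.43) for Zic1 and 0.49 (SE 0.40) for Zic4, and mural cells 0.26 (SE 0.22) for Zic4, with adjusted p of 0.906, 0.917 and 0.917 in edgeR. The tanycyte-like cells had 26 nuclei in each control library, and differences of this size could not be told from 0 at this depth.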

How the data were processed

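Nuclei of a dissected piece of hindbrain that held the area postrema and nucleus tractus solitarius were sorted by DRAQ5 and sequenced as 10x 3′ libraries. Per the labels, the authors used Cell Ranger 7.0.0 and Seurat 4.3.0 with the GRCm38 (mm10) build, and deposited UMI counts per gene and nucleus with a table of quality calls, cell types and clusters, whose names were used as given. Doublets were sought with scDblFinder per the methods, and no further caller was run here. Counts of nuclei passing the filter (39461 of 44303) were summed per library and cell type or cluster, scaled to CPM of all UMIs of those nuclei, and tested without a replicate block by edgeR 4.0.16 (quasi-likelihood test, TMM factors, Benjamini-Hochberg adjustment over all genes tested, R 4.3.3). A gene was tested where 5% or more of nuclei held a UMI. Types needed 20 and clusters 5 nuclei in every library to be tested. Alternatives were DESeq2 1.42.0, other filters and scaling, a replicate block, and each library left out. Shares carry 95% exact binomial intervals, which like the limits for a count of 0 (3 nuclei) cover counting error only. To compare depths, nuclei were thinned to 800 UMIs (types) or 2000 UMIs (neurons). Likeness to a member was the Pearson correlation of log2(mean CPM + 1) over clusters, among genes found in 2% of neurons or more.

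Named were the 4 members, for each the 6 neuronal clusters and 4 cell types with the highest mean CPM and the 6 genes most like it, the 6 pairs of member and cluster with the smallest p, and list genes past an adjusted p of 0.05. Members, gene lists and tests were chosen with earlier results of these data known. Zic1 in cluster 142, the other genes of clusters 104, 182 and 163, the counts of lineage factors by cluster and the single fibroblast, ependymal, endothelial and astrocyte clusters were chosen after their values were seen. Some genes of the lists are not reported here. The tests were tried on simulated counts first. Python 3.11.15 with numpy 2.4.6, pandas 2.3.3, scipy 1.17.1 and matplotlib 3.10.9 was used for sums and plots.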

Additional observations from a re-analysis of the deposited data

How the results depend on the processing

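The counts of bearing clusters depended on the limit. For Zic1 the 45 clusters became 59 when 10% of nuclei sufficed, 7 when 50% were required, 29 at 10 times the oligodendrocyte CPM and 8 with nuclei thinned to 2000 UMIs. For Zic4 the 33 became 51, 2 and 4 at 10%, 50% and with thinning. Zic2 had 7 clusters at 10%, and Zic5 had 3 at 10% and 0 at 50% or with thinning. With each library left out in turn the counts were 43 to 47 for Zic1, 30 to 35 for Zic4, 0 to 1 for Zic2 (1 without control replicate 2) and 0 to 1 for Zic5 (0 without control replicate 1). The difference in the share of neurons in Zic1 clusters was 0.222 percentage points at the 50% limit and 2.08 to 6.47 with a library left out. The 6 genes most like Zic5 shared 1 gene with the 6 by rank correlation and 2 with those over clusters of at least 50 nuclei, while for Zic1, Zic2 and Zic4 4 to 6 were shared.

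In all neurons, the log2 fold change of Zic1 was -0.031 (without control replicate 1) to 0.39 and that of Zic4 0.35 to 0.64 with a library left out, and without a filter Zic5 gave 0.59 and Zic2 0.45 (adjusted p = 0.867 each in edgeR). Replicate numbers were not treated as pairs: the labels tie them to nothing shared, and 2 pairs are too few to judge. Over genes in all neurons, the deviations of same-numbered libraries from their group means correlated at 0.184. Choroid plexus nuclei did go with the replicate number, with 2 and 6 in replicate 1 of the groups against 436 and 329 in replicate 2. With the replicate block Zic4 was at 0.49 (adjusted p = 0.0393 in edgeR), so 1 member passed where 0 had, in a fit that called 169 genes. In astrocytes the block gave 0.96 for Zic1 (adjusted p = 7.53e-08) and 0.72 for Zic4 (adjusted p = 0.00365), and no filter gave 0.98 and 0.74 (adjusted p = 2.06e-06 and 0.0115). DESeq2 gave 0.96 for Zic1 and no adjusted p for Zic4, and with a library left out the values were 0.70 to 1.27 for Zic1 and 0.59 to 0.86 for Zic4. The number of pairs of type and member past the adjusted threshold was 1 in DESeq2, 2 without a filter, 2 with the block and 0 to 2 with a library left out. The number past the adjusted threshold in all neurons was 0 to 1 with a library left out, and that in neuronal clusters was 0 under all 10 alternatives. With 2 libraries a group, a library left out leaves 1 that is assumed to vary like the others. Depth limits Zic2 and Zic5 most: with 181 and 227 neuronal UMIs, no level in a single cluster rested on more than 20.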
